A study of Homo sapiens with 6 samples.

Results

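The genes described here encode 31 enzymes and carrier subunits that take glucose to pyruvate, store it as glycogen, turn pyruvate into lactate, or bring it into the mitochondrion. The 31 genes were taken by gene symbol from a fixed list, which was chosen with earlier results of these data known. All 31 were found among the 17318 genes listed in each library. All 31 also passed the filter on low values, a mean FPKM of 1 or more across libraries, as did 11550 of all genes listed. FPKM counts sequenced fragments relative to transcript length and to the mapped fragments of the library. The lowest mean across libraries was 4.90 FPKM (PDK3) and the highest 2191 FPKM (GAPDH), so no member owed its place to 1 group.

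The series measured RNA of SNU216, an established human gastric cancer cell line, in 3 siOXTR and 3 siControl libraries. The siOXTR cells carried an siRNA against OXTR, the oxytocin receptor gene, and the siControl cells a control siRNA, each for 48 h in the same serum-containing medium. No allele or other agent is labelled, all libraries stem from 1 cell line, and whether other siRNAs against OXTR give the same changes was not tested. Nothing in the labels says that replicates were separate cultures, so each p-value below is set against a spread that may be technical.

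OXTR had 4.76, 4.65 and 5.34 FPKM in siOXTR libraries, against 39.4, 38.9 and 39.0 FPKM in siControl libraries. It fell by 2.76 on the log2 scale, in the direction of the labels. Summed FPKM of the epithelial markers EPCAM, KRT8, KRT18, KRT19 and CDH1 lay between 7707 and 7867 in siOXTR and between 6570 and 7622 in siControl libraries. Within that list CDH1 fell by 1.88 on the log2 scale, EPCAM fell by 1.00 and KRT19 rose by 0.27, which did not pass the threshold after TMM scaling (0.14, adjusted p = 0.164, limma). The 5 markers of blood, endothelial and fibroblast cells summed to between 1.40 and 2.19 FPKM in siOXTR and between 1.26 and 2.00 FPKM in siControl libraries, and none exceeded 1.67 FPKM in any library. Pearson's r across the tested genes was 0.974 to 0.976 between siOXTR and siControl libraries and 0.995 to 0.998 within either group.

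Glycolysis splits glucose into pyruvate in the cytosol, with hexokinase and phosphofructokinase as its regulated early steps. The PFKFB enzymes make and break fructose 2,6-bisphosphate, the strongest activator of phosphofructokinase. Pyruvate then either becomes lactate through lactate dehydrogenase or enters the mitochondrion through the MPC carrier, where the pyruvate dehydrogenase complex turns it into acetyl-CoA unless PDK kinases have switched the complex off. Most steps have several isozymes encoded by separate genes, and many of the inducible ones are known targets of the hypoxia-inducible factor HIF, which binds DNA at a core of ACGTG or GCGTG. Tumour cells commonly run glycolysis to lactate even in oxygen.

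The promoters of the genes with the largest changes are shown because these genes moved together or apart while sharing a pathway. Each runs from 250 bases before to 50 bases after an annotated start site, on the gene's own strand, from RefSeq on GRCh38.p14. The set holds the largest falls (PFKFB4 and ALDOC), the isozyme paired with PFKFB4 (PFKFB3, with 2 start sites) and the largest rise with an entry in the table (PDHB). Capitals mark ACGTG or GCGTG, read on either strand, so that CACGT and CACGC are capitalised too and a CACGTG counts on both strands. The windows lie at chr3:48556754-48557053 on the minus strand (PFKFB4), chr17:28576846-28577145 on the minus strand (ALDOC), chr10:6144671-6144970 and chr10:6202682-6202981 on the plus strand (PFKFB3) and chr3:58433783-58434082 on the minus strand (PDHB).
PFKFB4: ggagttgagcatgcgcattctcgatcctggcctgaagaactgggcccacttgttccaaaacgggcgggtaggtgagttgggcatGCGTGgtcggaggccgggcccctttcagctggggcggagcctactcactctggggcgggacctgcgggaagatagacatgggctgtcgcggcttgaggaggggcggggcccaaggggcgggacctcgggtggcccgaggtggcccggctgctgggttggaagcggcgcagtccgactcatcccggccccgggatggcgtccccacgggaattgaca
ALDOC: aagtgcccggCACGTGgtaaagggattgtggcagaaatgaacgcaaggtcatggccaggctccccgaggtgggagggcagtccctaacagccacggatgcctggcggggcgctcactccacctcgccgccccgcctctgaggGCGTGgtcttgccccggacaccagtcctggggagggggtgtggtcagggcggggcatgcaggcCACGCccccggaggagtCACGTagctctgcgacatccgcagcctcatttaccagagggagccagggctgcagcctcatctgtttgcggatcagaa
PFKFB3, first start: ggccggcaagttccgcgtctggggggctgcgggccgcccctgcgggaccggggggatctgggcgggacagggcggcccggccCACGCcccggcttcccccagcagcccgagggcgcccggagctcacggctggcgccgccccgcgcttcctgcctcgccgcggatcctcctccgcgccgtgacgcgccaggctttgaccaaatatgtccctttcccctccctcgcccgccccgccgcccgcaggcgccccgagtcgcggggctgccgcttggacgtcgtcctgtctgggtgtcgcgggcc
PFKFB3, second start: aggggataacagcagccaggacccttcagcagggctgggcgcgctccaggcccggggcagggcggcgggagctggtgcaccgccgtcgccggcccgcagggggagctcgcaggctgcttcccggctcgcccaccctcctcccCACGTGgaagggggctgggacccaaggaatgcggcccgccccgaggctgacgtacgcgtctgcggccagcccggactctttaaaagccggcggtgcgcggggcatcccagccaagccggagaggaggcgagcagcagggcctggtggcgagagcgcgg
PDHB: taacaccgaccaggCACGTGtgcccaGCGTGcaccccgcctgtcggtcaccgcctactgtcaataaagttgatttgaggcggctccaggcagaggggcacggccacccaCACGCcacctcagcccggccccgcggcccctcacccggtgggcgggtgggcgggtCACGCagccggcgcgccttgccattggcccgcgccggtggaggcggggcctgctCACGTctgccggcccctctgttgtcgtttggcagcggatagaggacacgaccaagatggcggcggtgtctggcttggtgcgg

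PFKFB4 holds a single match, a GCGTG 166 bases before its start, whereas ALDOC and PDHB hold several, among them a CACGTG whose first base lies 240 and 236 bases before the start. Matches therefore stand in the promoter of a gene that rose as well as in those of genes that fell. The table had promoters for 30 of the 31 genes (PFKFB2 has no entry), 59 windows in all. ACGTG was found in at least 1 window of 19 of these 30 genes (63.3%), against 32.8% of the 9511 tested genes with an entry, and GCGTG in 22 (73.3%), against 59.0%. Per window, ACGTG stood in 42.4% of the 59 and in 25.7% of the 13818 windows of tested genes, and in 21.4% of all 35116 windows of the table. Part of these matches lay within a CACGTG, which stood in 16.9% of the 59 windows and in 9.43% of the windows of tested genes. Which factor binds any of these matches was not tested. GCGTG stood in 45.8% of the 59 windows and in 49.2% of the windows of tested genes, the reverse of its order per gene, and the 30 genes had more windows per gene than tested genes. Of the 15 genes that were lower in siOXTR libraries 11 had an ACGTG, of the 8 higher genes with an entry 4 and of the 7 not called 4. A GCGTG was found in 11 of the 15 lower, 6 of the 8 higher and 5 of the 7 not called. Either motif stood in every lower and every higher gene with an entry and in 6 of the 7 not called, against 70.8% of tested genes. Per window, either motif stood in 77.8% for lower and 55.6% for higher genes, against 61.3% for tested genes. Windows of a single gene can overlap and are counted separately, as for PFKM among the higher and G6PC3 among the lower genes. Shares per window therefore weigh genes with many start sites more, and the gap between lower and higher genes may rest on such genes. These counts describe letters in the windows and carry no test.

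Of the 31 genes 15 were lower and 9 higher in siOXTR than in siControl libraries, and 7 did not pass the threshold (limma on log2(FPKM + 1), Benjamini-Hochberg adjusted p under 0.05 over all 11550 tested genes). These are 48.4% lower and 29.0% higher, against 17.6% lower and 42.2% higher among all tested genes. Since the members were chosen with earlier results of these data known, these shares do not come from an unselected list. The median log2 fold change was -0.06 for the 31 genes and 0.13 for all tested genes. Scaling mattered for the rises: TMM scaling, which equalises the libraries on genes that change little, moved the median of all tested genes by -0.12. Under TMM scaling 18 of the 31 genes fell and 3 rose, against 24.6% lower and 19.2% higher among all tested genes, and the 15 falls as deposited were all among the 18. The libraries of the groups did not overlap for 25 of the 31 genes, against 64.4% of all tested genes. Without siOXTR replicate 3 the number of higher genes was 5 among the 31. Over all 11550 tested genes it was 4070 in that setting, against 4869 with all libraries. Fewer expressing cells and less RNA per cell cannot be told apart in bulk RNA.

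**Figure D1:**
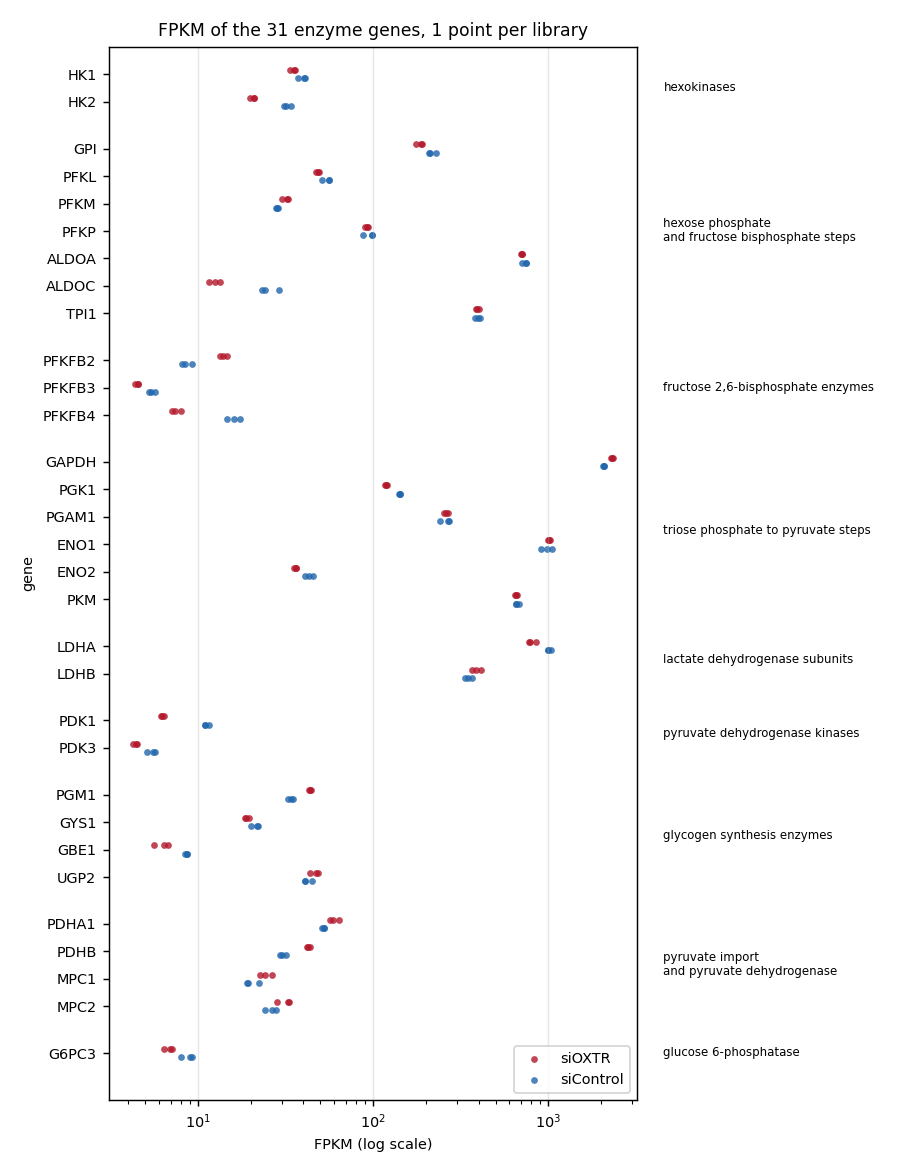
FPKM (log axis) of the 31 genes in each library, with siOXTR points above siControl points in every row and the genes grouped by role. GAPDH lies highest, between 2277 and 2344 FPKM in siOXTR and between 2065 and 2077 FPKM in siControl libraries. The widest gaps between groups lie among genes with lower values, such as PFKFB4, ALDOC, PDK1 and HK2.

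The largest changes lay outside the abundant enzymes of the pathway. In siOXTR libraries the 31 genes summed to 7421 ± 102 FPKM, against 7430 ± 131 FPKM in siControl libraries (SD, n = 3 each), which was 1.63% ± 0.0255 and 1.74% ± 0.0183 of the library totals. That near-equal sum held opposite changes. GAPDH averaged 2311 FPKM in siOXTR and 2071 FPKM in siControl libraries, and LDHA 800 and 1010 FPKM. The 10 genes that averaged 100 FPKM or more held 3 falls and 2 rises as deposited, against 17.6% and 42.2% of all tested genes. Under TMM scaling they held 5 falls and 0 rises, against 24.6% and 19.2%. Their log2 fold changes as deposited lay between -0.34 and 0.16, and none lay beyond 0.5 in either direction. Of the 21 less abundant genes 5 did, and they are HK2, ALDOC, PFKFB4, PDK1 and PFKFB2. The share of all tested genes beyond 0.5 was not computed at either level. Whether this split by level is particular to the 31 genes was therefore not tested. By mean FPKM LDHA ranked below ENO1 in siOXTR libraries (800 against 1011 FPKM). It ranked above ENO1 in siControl libraries (1010 against 982 FPKM), where the values of both genes overlapped.

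Hexokinases, which trap glucose in the cell as glucose 6-phosphate, were lower. HK2, the inducible isozyme that many tumours express, had 20.9, 19.7 and 20.7 FPKM in siOXTR libraries, against 33.9, 31.2 and 31.7 FPKM in siControl libraries. The groups lay apart by more than 10 FPKM, and HK2 fell by 0.63 on the log2 scale (SE 0.056, adjusted p = 1.53e-06, limma). HK1, the housekeeping isozyme, had 35.7, 33.7 and 35.3 FPKM in siOXTR libraries, against 40.2, 41.0 and 37.0 FPKM in siControl libraries. It fell by 0.17 (SE 0.056, adjusted p = 0.0208, limma), a call that was lost without siOXTR replicate 2, siControl replicate 1 or siControl replicate 2 (adjusted p = 0.0964, 0.0574 and 0.0583, limma). HK2 made up 36.9% ± 0.0460 of the summed hexokinase FPKM in siOXTR and 45.01% ± 1.61 in siControl libraries (SD, n = 3 each).

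At the fructose 2,6-bisphosphate step the isozymes moved in opposite directions. PFKFB4 (chromosome 3, 48517684 to 48562015, GRCh38) had 7.96, 7.42 and 7.13 FPKM in siOXTR libraries, against 16.1, 17.4 and 14.7 FPKM in siControl libraries. It fell by 1.01 on the log2 scale, the largest change among the 31 genes as deposited, though ALDOC exceeded it without siOXTR replicate 3 or siControl replicate 1 (SE 0.071, adjusted p = 1.99e-07, limma). PFKFB2 (chromosome 1, 207034366 to 207081024), best known from the heart, had 14.7, 13.4 and 13.9 FPKM in siOXTR libraries, against 9.22, 8.39 and 8.12 FPKM in siControl libraries. It rose by 0.65, the largest rise among the 31 genes (SE 0.065, adjusted p = 5.32e-06, limma), and it was 0.53 after TMM scaling (adjusted p = 2.62e-05, limma). PFKFB3, whose kinase activity far exceeds its phosphatase activity, fell by 0.23 (SE 0.063, adjusted p = 0.00752, limma) at a level of 4.47 ± 0.108 FPKM in siOXTR and 5.43 ± 0.212 FPKM in siControl libraries (SD, n = 3 each). PFKFB4 was the leading isozyme in siControl libraries and PFKFB2 in siOXTR libraries, since PFKFB2 held 53.9% ± 0.556 of the summed FPKM of the 3 genes in siOXTR and 28.5% ± 1.73 in siControl libraries. The sum itself was 26.0 ± 1.04 FPKM in siOXTR and 30.1 ± 1.78 FPKM in siControl libraries.

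The steps from glucose 6-phosphate to the triose phosphates held smaller changes apart from ALDOC. GPI, which turns glucose 6-phosphate into fructose 6-phosphate, had 190, 189 and 176 FPKM in siOXTR libraries, against 212, 229 and 209 FPKM in siControl libraries, and fell by 0.23 (SE 0.056, adjusted p = 0.0045, limma). Among the phosphofructokinase subunits PFKL, the liver type, fell by 0.16 (adjusted p = 0.0211, limma) and PFKM, the muscle type, rose by 0.16 (adjusted p = 0.0185, limma). Their means were 48.3 ± 0.846 FPKM (PFKL) and 31.7 ± 1.28 FPKM (PFKM) in siOXTR libraries, against 54.1 ± 2.67 and 28.2 ± 0.361 FPKM in siControl libraries. Neither call was firm. PFKL lost it without siOXTR replicate 1 or 2 or siControl replicate 2 or 3 (adjusted p between 0.0502 and 0.0849, limma), and PFKM lost it without siOXTR replicate 1 or 3 (adjusted p = 0.0629 and 0.0872, limma) and after TMM scaling (log2 fold change 0.04, adjusted p = 0.587, limma). PFKP, the platelet type and the most abundant of the 3, had 92.0, 90.1 and 92.9 FPKM in siOXTR libraries, against 87.9, 97.9 and 98.5 FPKM in siControl libraries. The groups overlapped (log2 fold change -0.05, 95% interval -0.17 to 0.08), though PFKP was called lower after TMM scaling (-0.17, adjusted p = 0.0236, limma).

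Aldolase splits fructose 1,6-bisphosphate. ALDOC (chromosome 17, 28573115 to 28577264), the isozyme first known from brain, had 12.5, 11.6 and 13.3 FPKM in siOXTR libraries, against 24.1, 29.2 and 23.2 FPKM in siControl libraries. The highest siOXTR library lay well below the lowest siControl library, and ALDOC fell by 0.97 on the log2 scale (SE 0.082, adjusted p = 1.03e-06, limma). ALDOA, which gave 98.3% of the aldolase FPKM in siOXTR and 96.6% in siControl libraries, had 706, 704 and 704 FPKM in siOXTR libraries, against 745, 749 and 708 FPKM in siControl libraries. The groups just missed each other, yet ALDOA did not pass the threshold (log2 fold change -0.06, 95% interval -0.17 to 0.06) until scaled by TMM (-0.19, adjusted p = 0.0117, limma). TPI1, which interconverts the triose phosphates, had a log2 fold change of -0.01 (95% interval -0.12 to 0.11).

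From the triose phosphates to pyruvate PGK1 and ENO2 were lower, and GAPDH, the most abundant of the 31 genes, was higher. PGK1, which makes the first ATP of the pathway, had 120, 117 and 119 FPKM in siOXTR libraries, against 141, 142 and 142 FPKM in siControl libraries, and fell by 0.26 (SE 0.048, adjusted p = 0.000689, limma). The spread within each group was under 3 FPKM. ENO2, the neuronal enolase, had 36.3, 36.0 and 35.3 FPKM in siOXTR libraries, against 42.8, 40.9 and 45.3 FPKM in siControl libraries, and fell by 0.25 (SE 0.054, adjusted p = 0.00181, limma). GAPDH, which oxidises glyceraldehyde 3-phosphate, rose by 0.16 (SE 0.054, adjusted p = 0.0234, limma), with 2277, 2312 and 2344 FPKM in siOXTR libraries, against 2077, 2065 and 2071 FPKM in siControl libraries. That rise lay close to the median of all tested genes and was 0.03 after TMM scaling (adjusted p = 0.695, limma), and it missed the threshold without siOXTR replicate 2 or 3 or siControl replicate 2 (adjusted p = 0.077, 0.0885 and 0.0538, limma).

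PGAM1, ENO1 and PKM, which carry out the mutase, the main enolase and the pyruvate kinase reactions, did not pass the threshold as deposited. Their log2 fold changes were 0.00, 0.05 and -0.02, with 95% intervals of -0.13 to 0.13, -0.09 to 0.18 and -0.13 to 0.10. Under TMM scaling PKM was lower (-0.15, adjusted p = 0.0381, limma), while PGAM1 and ENO1 still did not pass. Gene-level FPKM does not separate the splice forms of PKM. The genome holds pseudogenes named after several of these genes, 62 for GAPDH and 13 for PGAM1 in GENCODE release 29, and none of those names is among the genes listed, so reads may be shared between them and the parent genes.

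**Figure D2:**
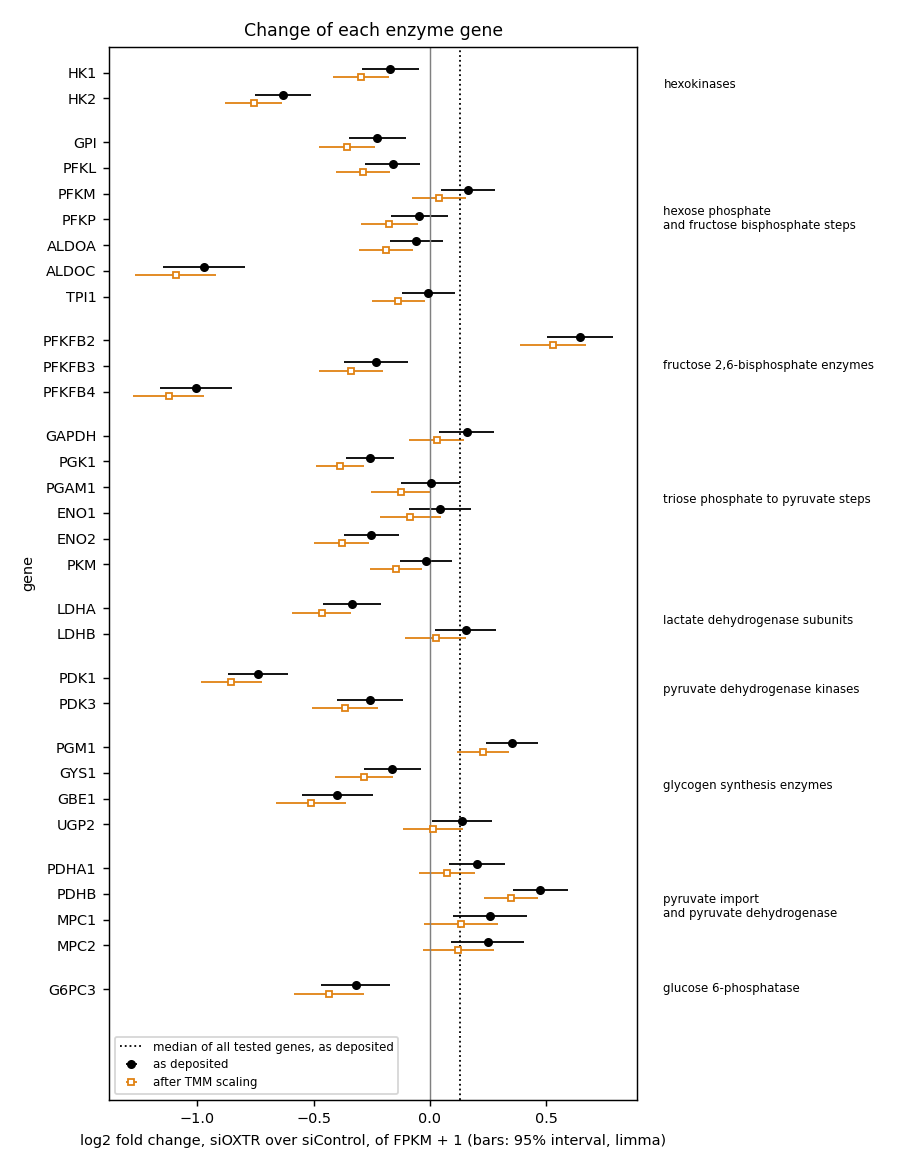
Log2 fold change (siOXTR over siControl, of FPKM + 1) with its 95% interval from limma for each gene, as deposited (filled circles) and after TMM scaling (open squares). The dotted line is the median of all tested genes as deposited, 0.13. Every TMM value lies to the left of its deposited value, and PFKFB2, PGM1 and PDHB are the genes whose TMM interval stays above 0.

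The subunits of lactate dehydrogenase moved apart. LDHA, whose subunit favours making lactate, had 772, 782 and 848 FPKM in siOXTR libraries, against 997, 1001 and 1032 FPKM in siControl libraries. It fell by 0.34 on the log2 scale, the largest change among the 10 abundant genes (SE 0.057, adjusted p = 0.000389, limma). LDHB, whose subunit favours using lactate, had 367, 384 and 414 FPKM in siOXTR libraries, against 335, 347 and 365 FPKM in siControl libraries. The groups did not overlap but nearly met. Its rise of 0.15 (SE 0.061, adjusted p = 0.0445, limma) was 0.02 after TMM scaling (adjusted p = 0.773, limma). It was also lost without siOXTR replicate 2 or 3 or siControl replicate 1 or 2 (adjusted p = 0.0931, 0.201, 0.127 and 0.0932, limma), with no filter on low values (0.0735) and with a plain prior (0.0618). LDHA gave 67.3% ± 0.392 of the summed FPKM of this pair in siOXTR and 74.3% ± 0.481 in siControl libraries (SD, n = 3 each).

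Ratios between isozymes within a library do not depend on how libraries are scaled. Of the 11 pairs compared 10 did not overlap between groups, where single genes did not overlap in 64.4% of all tested genes. A share over pairs of all tested genes was not computed, and some pairs have PFKL or PFKFB3 in common. The log2 ratio of LDHA to LDHB was 1.07, 1.02 and 1.03 in siOXTR libraries, against 1.57, 1.53 and 1.50 in siControl libraries, a difference of -0.49 (SE 0.026). That of HK2 to HK1 differed by -0.48 (SE 0.054), that of ALDOC to ALDOA by -0.97 (SE 0.10), that of PFKFB4 to PFKFB3 by -0.82 (SE 0.065) and that of PFKFB3 to PFKFB2 by -0.99 (SE 0.069). The ratio of PFKM to PFKL was higher by 0.33 (SE 0.038) and that of PFKP to PFKL by 0.12 (SE 0.012), while ENO2 to ENO1 differed by -0.30 (SE 0.084) and PDK1 to PDK3 by -0.52 (SE 0.050). Among the subunits of 1 complex, PDHA1 to PDHB differed by -0.28 (SE 0.081) and MPC1 to MPC2, the only pair whose groups overlapped, by 0.01 (SE 0.16). An exact two-sided permutation test gave p = 0.1 for each of the 10 pairs without overlap, the smallest that 3 against 3 libraries allow (0.11 after Benjamini-Hochberg adjustment over 11 pairs), and p = 0.9 for MPC1 to MPC2. Annotated coding transcripts of paired isozymes shared identical runs of at most 50 bases (ENO2 and ENO1).

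**Figure D3:**
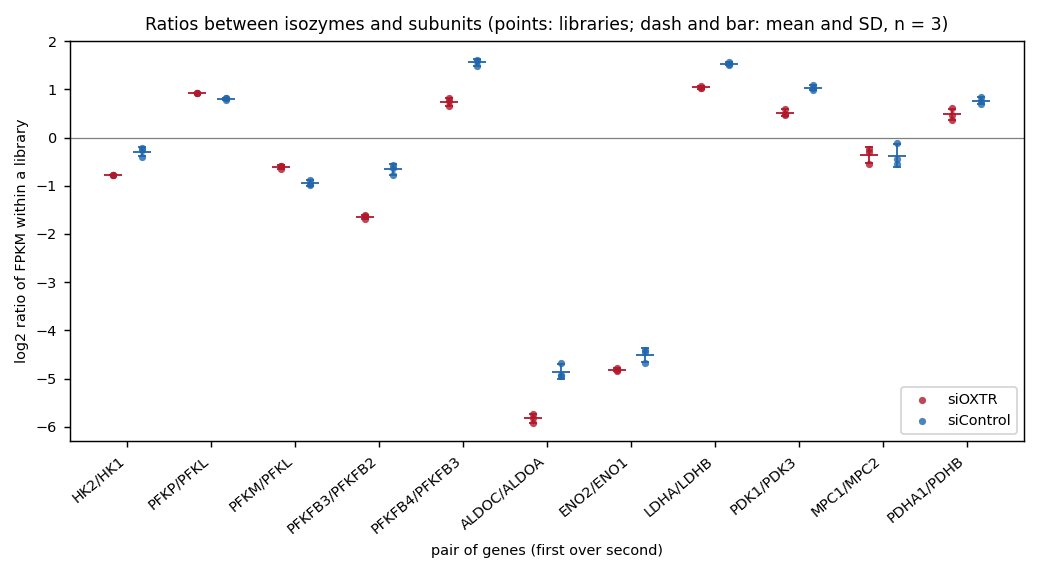
Log2 ratio of FPKM between pairs of genes within each library (points), with the mean and SD of 3 libraries, siOXTR left of siControl for each pair. Libraries of a group lie close together, as for LDHA/LDHB at 1.04 ± 0.0257 in siOXTR and 1.53 ± 0.0364 in siControl libraries, and MPC1/MPC2 is the pair whose groups overlap.

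The genes that bring pyruvate into the mitochondrion and oxidise it were higher as deposited, in 4 of 4 cases, against 42.2% of all tested genes, and in 1 of 4 under TMM scaling, against 19.2%. PDHB (chromosome 3, 58427630 to 58433857), the beta subunit of the pyruvate dehydrogenase component, had 42.6, 43.8 and 41.7 FPKM in siOXTR libraries, against 29.2, 30.1 and 32.0 FPKM in siControl libraries. It rose by 0.48 on the log2 scale (SE 0.054, adjusted p = 1.63e-05, limma) and by 0.35 after TMM scaling (adjusted p = 0.000198, limma). PDHA1, the alpha subunit that the PDK kinases phosphorylate, had 58.6, 56.8 and 63.8 FPKM in siOXTR libraries, against 52.3, 50.9 and 52.1 FPKM in siControl libraries, and rose by 0.20 (SE 0.055, adjusted p = 0.00821, limma).

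MPC1 and MPC2 form the pyruvate carrier of the inner membrane. MPC1 had 22.7, 26.4 and 24.1 FPKM in siOXTR libraries, against 19.4, 19.1 and 22.4 FPKM in siControl libraries, and rose by 0.26 (SE 0.073, adjusted p = 0.00957, limma). MPC2 had 33.2, 32.4 and 28.3 FPKM in siOXTR libraries, against 26.5, 27.9 and 24.2 FPKM in siControl libraries, and rose by 0.25 (SE 0.071, adjusted p = 0.0103, limma). The nearest libraries of the groups were less than 1 FPKM apart for each of these genes. After TMM scaling the log2 fold changes were 0.07 for PDHA1, 0.13 for MPC1 and 0.12 for MPC2, none of which passed the threshold (adjusted p = 0.31, 0.157 and 0.179, limma). The call of PDHA1 was also lost without siOXTR replicate 3 and that of MPC1 without siOXTR replicate 2 (adjusted p = 0.0542 and 0.0536, limma).

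The PDK kinases, which switch the pyruvate dehydrogenase complex off, changed in make-up. PDK1 had 6.43, 6.20 and 6.18 FPKM in siOXTR libraries, against 10.9, 11.0 and 11.6 FPKM in siControl libraries, and fell by 0.74 on the log2 scale (SE 0.059, adjusted p = 6.97e-07, limma). PDK3 was low, at 4.26, 4.41 and 4.45 FPKM in siOXTR libraries, against 5.51, 5.11 and 5.65 FPKM in siControl libraries, and fell by 0.26 (SE 0.065, adjusted p = 0.00498, limma). Among the other genes of these pathways PDK4, the kinase induced by fasting, had 12.25, 12.95 and 12.99 FPKM in siOXTR libraries, against 8.79, 7.50 and 8.44 FPKM in siControl libraries, and rose by 0.57 (SE 0.067, adjusted p = 2.09e-05, limma). PDK2, named here after its value was seen to complete the family, had a log2 fold change of 0.07 (95% interval -0.11 to 0.25). The 4 kinase genes summed to 31.1 ± 0.650 FPKM in siOXTR and 32.2 ± 0.186 FPKM in siControl libraries (SD, n = 3 each). Within that sum PDK1 held 20.1% ± 0.850 in siOXTR and 34.6% ± 0.932 in siControl libraries, and PDK4 held 40.9% ± 0.698 in siOXTR and 25.6% ± 2.06 in siControl libraries.

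**Figure D4:**
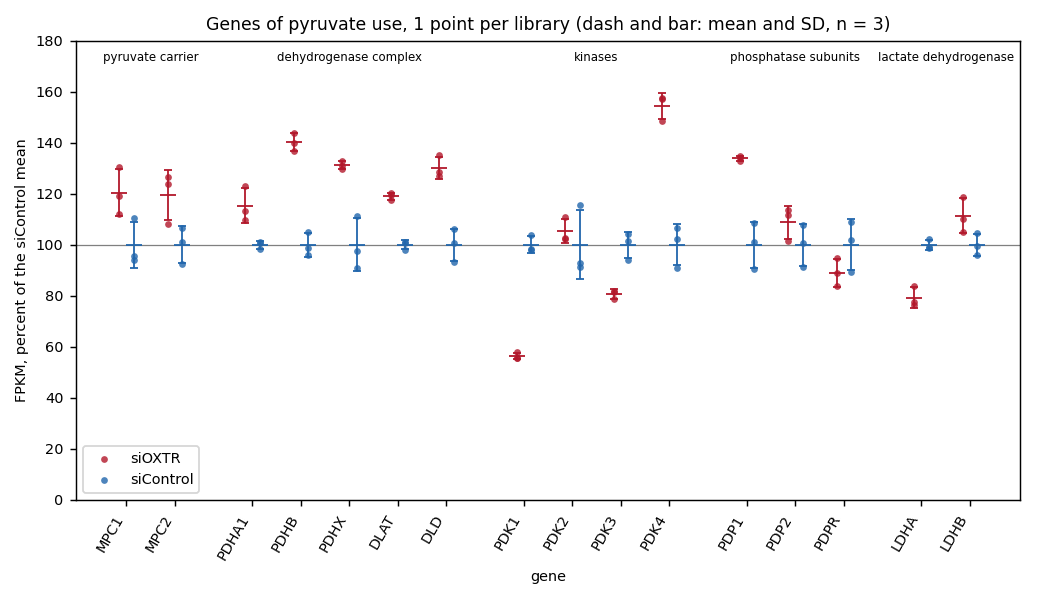
FPKM of genes of pyruvate use in each library, as a percentage of the gene's siControl mean, with the mean and SD of 3 libraries, siOXTR left of siControl for each gene. The 5 genes of the dehydrogenase complex lie above their siControl libraries, PDK1 lies well below and PDK4 well above, and LDHA lies below while LDHB lies slightly above.

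**Figure D5:**
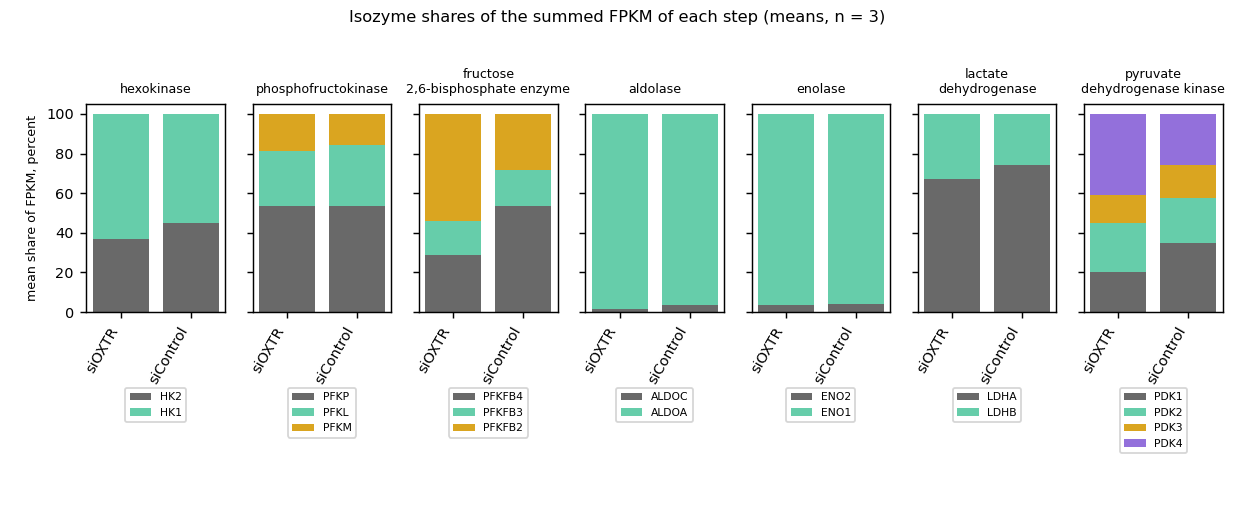
Mean share of each isozyme in the summed FPKM of its step (stacked bars, percent, 3 libraries each), siOXTR left of siControl. The exchange between PFKFB4 and PFKFB2 and that between PDK1 and PDK4 are the widest, whereas ALDOA and ENO1 make up over 95% of their steps in either group.

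Glycogen genes moved in both directions. PGM1, which links glucose 6-phosphate with glucose 1-phosphate, had 42.9, 44.4 and 43.5 FPKM in siOXTR libraries, against 32.7, 35.0 and 34.1 FPKM in siControl libraries. It rose by 0.35 on the log2 scale (SE 0.052, adjusted p = 0.000126, limma) and by 0.23 after TMM scaling (adjusted p = 0.0034, limma). GBE1, the glycogen branching enzyme, had 6.75, 5.62 and 6.41 FPKM in siOXTR libraries, against 8.60, 8.43 and 8.61 FPKM in siControl libraries, and fell by 0.40 (SE 0.070, adjusted p = 0.000474, limma). GYS1, the glycogen synthase of most tissues, had 19.4, 18.7 and 18.7 FPKM in siOXTR libraries, against 22.1, 21.8 and 20.1 FPKM in siControl libraries. It fell by 0.16 (SE 0.057, adjusted p = 0.0277, limma), a change that missed the threshold without siOXTR replicate 2 or 3 or siControl replicate 1 or 2 (adjusted p between 0.0634 and 0.0957, limma). UGP2, which makes UDP-glucose, had 43.8, 48.2 and 47.3 FPKM in siOXTR libraries, against 40.9, 40.6 and 44.8 FPKM in siControl libraries. It did not pass the threshold (log2 fold change 0.14, adjusted p = 0.0591, limma) but passed without siOXTR replicate 1 or siControl replicate 3 (adjusted p = 0.0379 and 0.0178, limma). The change of UGP2 was 0.01 after TMM scaling (adjusted p = 0.886, limma) and 0.05 with equal FPKM totals (adjusted p = 0.451, limma).

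G6PC3, the widely expressed glucose 6-phosphatase, is an enzyme of the endoplasmic reticulum membrane. It had 6.89, 7.10 and 6.39 FPKM in siOXTR libraries, against 8.03, 9.20 and 8.97 FPKM in siControl libraries, and fell by 0.32 on the log2 scale (SE 0.069, adjusted p = 0.0019, limma). The highest siOXTR library stayed below the lowest siControl library.

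Neighbours of the 31 genes in the same pathways lay close to all tested genes in their shares of falls and rises as deposited. They too were chosen with earlier results of these data known. Of a list of 63 such genes 60 were listed and 37 tested, and of these 5 were lower and 17 higher, which is 13.5% and 45.9%, against the 17.6% and 42.2% of all tested genes. Their median log2 fold change was 0.12, and TMM scaling gave 8 falls and 12 rises among them (21.6% and 32.4%, against 24.6% and 19.2% of all tested genes). The 5 falls, as log2 fold changes, were GAA, the lysosomal glycogen-digesting glucosidase (-1.26), ADPGK, an ADP-dependent glucokinase of the endoplasmic reticulum (-0.71), MINPP1, a phosphatase of the same compartment (-0.64), STBD1, which tethers glycogen to membranes (-0.61), and GPD2, the mitochondrial glycerol 3-phosphate dehydrogenase (-0.25). GAA had 12.8, 11.8 and 11.4 FPKM in siOXTR libraries, against 29.1, 32.9 and 28.6 FPKM in siControl libraries, with no overlap between groups. The largest rises were those of ENO3, the muscle enolase (0.71, at 4.82 ± 0.326 FPKM in siOXTR and 2.57 ± 0.408 FPKM in siControl libraries), PDK4, PCK2, the mitochondrial phosphoenolpyruvate carboxykinase (0.43), PHKG2, a phosphorylase kinase subunit (0.42), and PDP1, the phosphatase that switches pyruvate dehydrogenase back on (0.42).

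Of the 8 other pyruvate dehydrogenase genes 5 rose and none fell, against 42.2% higher and 17.6% lower among all tested genes. TMM scaling left 4 higher, against 19.2% of all tested genes, and put PDPR, a regulatory phosphatase subunit, lower, against 24.6% (log2 fold change -0.27, adjusted p = 0.0131, limma). Besides PDK4 and PDP1 the rises were PDHX, DLAT and DLD, the remaining core subunits of the complex, which, like PDPR, are named here after their values were seen. DLD had 65.6, 64.7 and 68.9 FPKM in siOXTR libraries, against 51.3, 47.6 and 54.1 FPKM in siControl libraries, and rose by 0.38 (SE 0.058, adjusted p = 0.00019, limma). PDHX rose by 0.39 (SE 0.068, adjusted p = 0.000505, limma) and DLAT by 0.24 (SE 0.050, adjusted p = 0.00135, limma), of which DLAT did not pass the threshold after TMM scaling (adjusted p = 0.0756, limma). All 5 core subunits of the complex thus rose in the values as deposited, with PDHB, PDHX and DLD also higher after TMM scaling.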

How the data were processed

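RNA of 6 SNU216 libraries (Trizol, BGISEQ-500 protocol, per the labels) was deposited as 1 FPKM value per gene and library, per the file headers. The submitters' processing notes name the build GRCh38.p13; no source used here gives the aligner, quantifier, annotation or filters. Depth is unknown, so no counting intervals are given. FPKM totals were 446246 to 459595 in siOXTR and 417829 to 434167 in siControl libraries. The files hold no counts, and the test was limma 3.58.1 (R 4.3.3) across all 11550 genes whose mean FPKM reached 1, on log2(FPKM + 1), with group as the only term, a trended robust prior, two-sided, Benjamini-Hochberg adjusted over all tested genes, threshold 0.05. Fold changes on this scale understate changes of low genes. TMM factors (trims of 0.3 and 0.05) were computed on FPKM. Exact permutation tests used scipy 1.17.1. The limma step was tested on simulated data with equal noise for all genes and no general shift between groups. That setting is simpler than these data, so it does not bear on the calls that depend on scaling. Alternatives were TMM scaling, equal FPKM totals, a pseudocount of 0.1, no filter on low values, a replicate block, a plain prior and leaving out each library. Named genes are all 31 members, OXTR, the markers, and up to 5 rises and 5 falls among the 63 neighbours; exceptions, named after their values were seen, are stated. Members and lists were chosen with earlier results of these data known. Positions are from GENCODE release 29 (GRCh38).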

Additional observations from a re-analysis of the deposited data

How the results depend on the processing

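Across 12 alternatives, 18 of the 31 genes kept their side of the threshold in every one and 15 of these also their direction, PFKFB4, ALDOC, PDK1, HK2, LDHA, PGK1, PFKFB2, PGM1 and PDHB among the 15, while TPI1, PGAM1 and ENO1, which passed in none, changed sign. With TMM scaling 3 genes were higher and with equal FPKM totals 4, against 9 as deposited, and 18 and 16 were lower, against 15. Equal totals ended the calls of PFKM, GAPDH, LDHB, PDHA1 and MPC2. Over all tested genes 2213 were higher with TMM scaling and 2956 with equal totals, against 4869 as deposited. The lower ones over all tested genes were 2838 and 2432, against 2036. Of the pathway neighbours 8 were lower with TMM scaling, against 5. Leaving out 1 library at a time gave 5 to 10 higher and 12 to 14 lower genes among the 31. Over all tested genes it gave 3980 to 4671 higher and 1820 to 2028 lower. Among the 31 genes 5 were higher without siOXTR replicate 3, and 12 were lower without siOXTR replicate 2 or siControl replicate 2. The log2 ratio of MPC1 to MPC2 lay between -0.077 and 0.14 when 1 library was left out. Same-numbered libraries deviated together at r = 0.107, 0.0042 and 0.16, and siOXTR replicate 1 matched siControl replicate 2 best (0.208). These values gave no sign of pairing by number, but deviations from means of 3 libraries cannot settle it. With the replicate block 15 of the 31 genes were lower and 10 higher, against 2105 and 5100 of all tested genes. UGP2 was the only member whose call the block changed. Depth is unknown, and 3 libraries per group limit the precision.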
